A study of Homo sapiens with 6 samples.

Results

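The 10 genes described here, BCL2, BCL2L1, MCL1, BAX, BAK1, BBC3, PMAIP1, BCL2L11, BID and BIK, belong to the BCL2 family and were picked by symbol. They are 10 of the 42974 distinct gene symbols in the count tables of 2 RNA-seq experiments, and all 10 were found in both tables. MDA-MB-231, a human line of triple-negative breast cancer (TNBC) cells, was sequenced in 6 libraries, 1 library per condition. In the first experiment a lentiviral hairpin had been put into the cells, either scramble-shRNA or one of the hairpins designed against the cyclin-dependent kinase CDK16 (CDK16-sh1 and CDK16-sh2), and stable lines had been sorted by FACS. In the second experiment the cells received DMSO, 1 μM rebastinib (Reb) or 5 μM Reb for 48 h. Reb is a kinase inhibitor developed against the ABL and TEK kinases and was used in this study as an inhibitor of CDK16. Which of its targets a difference in a Reb library goes with was not tested. Since no condition was repeated, no difference between libraries has a replicate check, and the intervals below are 95% exact Clopper-Pearson intervals that cover counting error only.

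Proteins of the BCL2 family decide whether the outer mitochondrial membrane is opened during apoptosis. BCL2, BCL-XL (encoded by BCL2L1) and MCL1 keep it closed, while BAX and BAK (BAK1) are the effectors that oligomerise in the membrane and let cytochrome c escape. The BH3-only proteins PUMA (BBC3), NOXA (PMAIP1), BIM (BCL2L11), BID and BIK report stress to this system. PUMA and BIM bind all of the anti-apoptotic proteins named here, NOXA binds chiefly MCL1, and BID acts once it has been cleaved. Much of this system is set at the protein level, for example by the rapid turnover of MCL1 and the phosphorylation of BIM, which messenger RNA counts do not show. The study asked how TNBC cells respond to loss or inhibition of CDK16, and the comparisons of each treated library with its own control were read here for these genes.

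Total counts ranged from 25838443 to 31955119 in the knockdown experiment and from 37655548 to 50303269 in the Reb experiment. The 5 μM library stood apart, with 16.4% of its counts on mitochondrial transcripts against 7.19% with DMSO and with 35.3% on its 100 most abundant genes against 24.3%. CDK16-sh2 also carried 16.2% mitochondrial counts, against 11.3% in the scramble library. The median log2 fold change of all expressed genes at 5 μM was −0.07 under TMM scaling and −0.75 under library totals, and in CDK16-sh2 it was 0.02 and −0.18. CDK16, the target of the hairpins, went from 3223 counts with scramble to 1360 with CDK16-sh1 and 846 with CDK16-sh2, at log2 fold changes of −1.52 and −1.82. The markers of mesenchymal-like MDA-MB-231 cells were present, with VIM between 177 and 833 RPKM and AXL between 45.4 and 221. ESR1 and PGR did not exceed 0.0227 RPKM and CDH1 did not exceed 0.174, whereas ERBB2 (2.56 to 6.54), GATA3 (0.596 to 3.75) and EPCAM (1.55 to 4.30) were detected. Of the markers of immune, endothelial and fibroblast cells, PTPRC, PECAM1, VWF, DCN and LUM stayed at or below 0.395 RPKM, and CD68, which cancer cells also carry in their lysosomes, lay between 106 and 235.

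On GRCh38 the tables place BCL2 (chr18:63123346-63320128) and PMAIP1 (chr18:59899948-59904306) on chromosome 18, with PMAIP1 on the plus strand and BCL2 on the minus strand. BAX (chr19:48954815-48961798, plus) and BBC3 (chr19:47220822-47232766, minus) share chromosome 19, and BID (chr22:17734138-17774770, minus) and BIK (chr22:43110748-43129712, plus) share chromosome 22. BCL2L1 lies at chr20:31664452-31723989 (minus), MCL1 at chr1:150574551-150579738 (minus), BAK1 at chr6:33572547-33580293 (minus) and BCL2L11 at chr2:111119378-111168447 (plus). The counts cover the exons of each gene, from 953 bases for BIK to 11765 for BCL2.

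Start regions from RefSeq (GRCh38.p14) are shown for 5 of the 6 members that lay past 2-fold in a comparison, each reading 5′ to 3′ on the strand of the gene over 250 bases before and 50 bases after a start. RefSeq entries matched 8 of the 10 members, and MCL1 and BIK had none. Capitals mark matches to any of 7 motifs, searched on both strands. They were the full CRE TGACGTCA, held by 1.84% of all 34796 promoters of this length, its core TGACG (24.5%), the AP-1 motif TGANTCA (7.73%), the FOXO motif GTAAACA (3.42%), the E-box CACGTG (7.21%), the ATF4-CHOP motif TGATGNAA (3.63%) and the E2F motif TTTGGCGC (0.652%). The core is part of the full CRE, so a full match would count under both.
PMAIP1, chr18:59899746-59900045 (+): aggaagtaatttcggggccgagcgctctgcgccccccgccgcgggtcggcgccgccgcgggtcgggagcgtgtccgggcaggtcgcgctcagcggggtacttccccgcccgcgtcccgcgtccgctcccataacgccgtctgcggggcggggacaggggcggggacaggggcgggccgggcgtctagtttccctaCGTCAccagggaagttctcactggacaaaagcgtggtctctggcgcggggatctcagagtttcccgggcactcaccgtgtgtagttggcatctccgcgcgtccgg
BCL2L11, chr2:111120664-111120963 (+): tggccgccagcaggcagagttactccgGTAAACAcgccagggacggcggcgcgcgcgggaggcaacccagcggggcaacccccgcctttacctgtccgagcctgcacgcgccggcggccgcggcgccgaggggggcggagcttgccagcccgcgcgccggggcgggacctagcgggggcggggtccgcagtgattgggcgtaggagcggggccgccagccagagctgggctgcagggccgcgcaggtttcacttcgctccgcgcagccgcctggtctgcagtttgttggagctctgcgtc
BBC3, chr19:47232618-47232917 (−): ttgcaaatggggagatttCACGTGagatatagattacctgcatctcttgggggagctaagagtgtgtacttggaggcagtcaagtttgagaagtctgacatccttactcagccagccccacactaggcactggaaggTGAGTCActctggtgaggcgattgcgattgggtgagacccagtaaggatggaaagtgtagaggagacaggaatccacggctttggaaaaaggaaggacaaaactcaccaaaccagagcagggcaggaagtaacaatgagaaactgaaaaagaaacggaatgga
BAX, chr19:48954625-48954924 (+): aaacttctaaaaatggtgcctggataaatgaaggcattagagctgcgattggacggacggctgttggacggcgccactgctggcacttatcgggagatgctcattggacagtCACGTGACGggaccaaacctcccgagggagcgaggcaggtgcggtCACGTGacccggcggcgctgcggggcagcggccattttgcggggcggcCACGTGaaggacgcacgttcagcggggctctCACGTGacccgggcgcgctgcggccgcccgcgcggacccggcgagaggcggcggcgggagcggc
BCL2L1, chr20:31723914-31724213 (−): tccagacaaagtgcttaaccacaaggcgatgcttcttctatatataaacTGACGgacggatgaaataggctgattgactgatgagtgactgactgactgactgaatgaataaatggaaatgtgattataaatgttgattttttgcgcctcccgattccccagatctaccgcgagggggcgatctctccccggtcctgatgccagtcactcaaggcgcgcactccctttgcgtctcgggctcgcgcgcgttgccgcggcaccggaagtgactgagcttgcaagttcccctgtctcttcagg
The PMAIP1 window held the CRE core at base 196, in the reverse orientation. The BCL2L11 window had a FOXO match at base 28, and the BBC3 window an E-box at base 19 and an AP-1 match at base 138. The BAX window held 4 E-boxes, at bases 113, 158, 206 and 237, the first of which overlapped a CRE core at base 117. The BCL2L1 window, around the more upstream of its 2 listed starts, held a CRE core at base 50. The window around the other BCL2L1 start, which is not printed, held none of the 7 motifs. BAK1, the sixth such member, had none of the 7 motifs in its window and is not printed. BCL2 and BID, which were not past 2-fold under TMM scaling, also had matches. These were a CRE core at base 26 of the BCL2 window and an E-box in some of the BID windows. These matches are letters in a window and say nothing about whether a factor was bound in these cells.

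Levels of the members spanned more than 100-fold within a library when compared per length, as the deposited RPKM. BCL2L1 was the most abundant member in 5 of the 6 libraries, with 104 RPKM for scramble, 126 for CDK16-sh1, 97.2 for CDK16-sh2, 52.4 with DMSO and 56.6 at 1 μM Reb, and only at 5 μM, with 13.0, did it take rank 3. MCL1 (26.3 to 47.3 RPKM) and PMAIP1 (22.7 to 56.0) followed, then BAX (1.71 to 26.5), BAK1 (1.51 to 21.4) and BID (2.41 to 5.84). BBC3 (0.924 to 2.28 RPKM), BCL2L11 (0.529 to 1.62), BCL2 (0.257 to 0.816) and BIK (0.191 to 0.418) were the low members. BCL2 itself, the founding member of the family, thus ranked between 8 and 10 of the 10 genes in every library. The order of the others was not the same throughout. At 5 μM BID took rank 4, BBC3 rank 5, BAX rank 6, BCL2L11 rank 7 and BAK1 rank 8. In CDK16-sh1 BAX (26.5 RPKM) was just above MCL1 (26.3). No order within a library can be set against a replicate spread, since each condition was sequenced once.

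**Figure D1:**
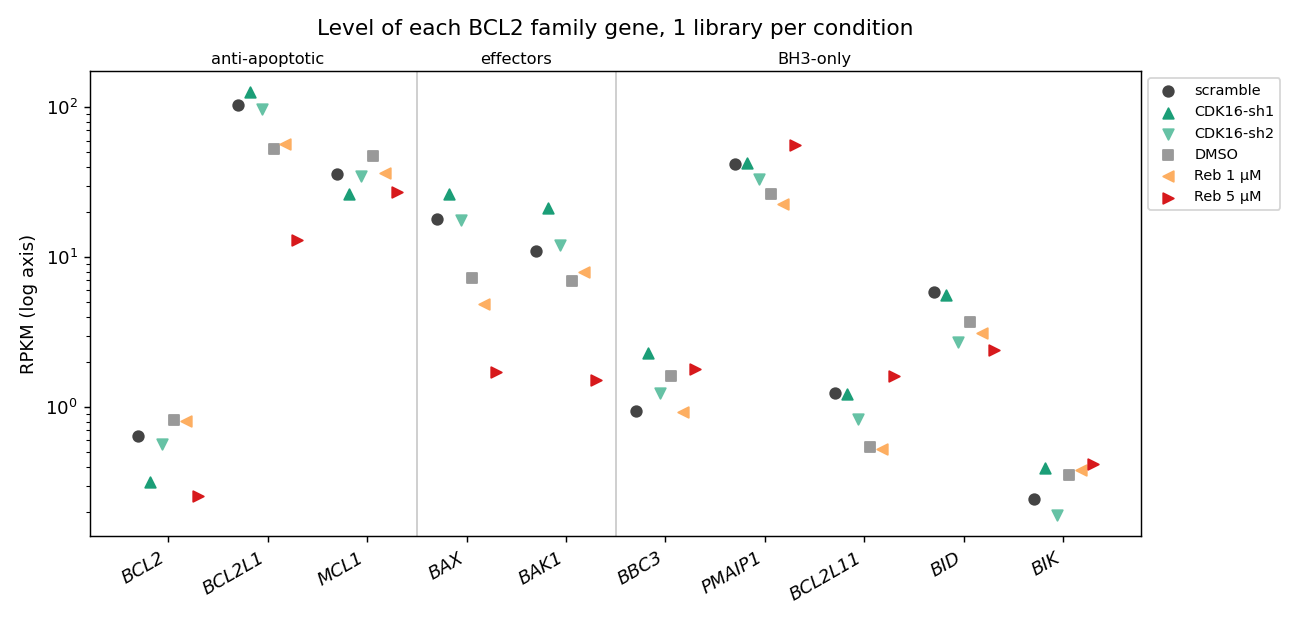
RPKM of the 10 BCL2 family genes (log axis) in the 6 libraries, grouped by role, with 1 point per library. At 5 μM Reb BCL2L1 dropped out of first place, to 13.0 RPKM, and PMAIP1 took it with 56.0.

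The controls of the experiments also differed. With scramble at 17.8 RPKM and DMSO at 7.32, BAX was 2.44-fold higher in the scramble library, and BCL2L11 was 2.27-fold higher (1.24 and 0.546). These were the members past 2-fold between the controls, 2 of 10, and BCL2L1 lay just under it at 1.98-fold. The share of all genes this far apart between the controls was not taken, so the count says nothing particular to these members. The tables were made separately, and the vector, the culture and the table cannot be told apart in this difference. All further comparisons were therefore made within an experiment.

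In the CDK16 knockdown experiment the 1 member past 2-fold under TMM scaling was BBC3, which encodes PUMA, in CDK16-sh1, and in CDK16-sh2 the member furthest from the control was BID. BBC3 had 77 counts with scramble, 232 with CDK16-sh1 and 109 with CDK16-sh2, and was 2.45-fold higher in CDK16-sh1 and 1.51-fold higher in CDK16-sh2. BBC3 was the 1 of 9 expressed members at least 2-fold higher in CDK16-sh1, where 4.33% of all 15295 expressed genes were, and none of the 9 was at least 2-fold lower, against 6.86% of all genes. In CDK16-sh2 no member was past 2-fold in either direction, where 2.2% of all genes were higher and 7.62% lower. The tenth member, BIK, did not reach the filter of a mean of 1 CPM in either experiment.

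Among the anti-apoptotic genes, BCL2 had 195 counts with scramble, 120 with CDK16-sh1 and 185 with CDK16-sh2. The first hairpin put it at a log2 fold change of −0.96 (interval −1.32 to −0.64) and the second at 0.03 (interval −0.27 to 0.33), so BCL2 was low with only 1 of the hairpins. BCL2L1, the source of BCL-XL, had 8884, 13312 and 8861 counts and lay at 0.31 (interval 0.27 to 0.35) and 0.10 (interval 0.06 to 0.15). MCL1, whose protein is the main partner of NOXA, had 4047, 3672 and 4175 counts and stood on opposite sides of the scramble library, at −0.42 (interval −0.48 to −0.35) and 0.15 (interval 0.09 to 0.21). Under library totals the CDK16-sh2 values of BCL2L1 (−0.09) and MCL1 (−0.04) changed sign, and so they depend on the scaling. BCL2L1 in CDK16-sh1 was at 0.12 with the trends on expression and length removed and at −0.03 with GC content removed too, so its direction also depended on the processing.

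Both effectors were higher with CDK16-sh1. BAK1 had 628 counts with scramble, 1510 with CDK16-sh1 and 735 with CDK16-sh2, so that it lay above the control by 0.99 (interval 0.85 to 1.13) and by 0.33 (interval 0.18 to 0.49) on the log2 scale. BAX had 1193, 2190 and 1262 counts, at 0.60 (interval 0.50 to 0.70) and 0.19 (interval 0.07 to 0.30). CDK16-sh2 thus gave smaller values for both genes. Under library totals its BAX value was −0.01 and its BAK1 value 0.14 (interval −0.02 to 0.29), within counting error of the scramble library. Against CDK16-sh1 directly, CDK16-sh2 lay at −0.65 (interval −0.78 to −0.53) for BAK1 and at −0.41 (interval −0.51 to −0.31) for BAX. After removal of trends on expression, gene length and GC content, CDK16-sh1 had BAK1 at 0.52, BAX at 0.14 and BBC3, the most GC-rich member with 69.7% GC, at 0.72.

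Of the BH3-only genes, BBC3 lay at a log2 fold change of 1.29 (interval 0.94 to 1.71) with the first hairpin and of 0.60 (interval 0.17 to 1.05) with the second. Under library totals the BBC3 value in CDK16-sh2 was 0.40 (interval −0.02 to 0.85), within counting error of the scramble library. BID, which links death receptors to mitochondria, had 671 counts with scramble, 795 with CDK16-sh1 and 334 with CDK16-sh2. It was level with the control in CDK16-sh1 at −0.03 (interval −0.18 to 0.12) and 1.86-fold lower in CDK16-sh2 at −0.90 (interval −1.09 to −0.71), and under library totals the latter value was past 2-fold. PMAIP1, the NOXA gene, had 2425, 3056 and 2045 counts (0.06 and −0.14), and BCL2L11, the BIM gene, had 213, 260 and 152 (0.01 and −0.38). For BIK, with 6, 12 and 5 counts, the interval against the scramble library ran from −0.80 to 2.42 in CDK16-sh1 and from −2.21 to 1.82 in CDK16-sh2.

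**Figure D2:**
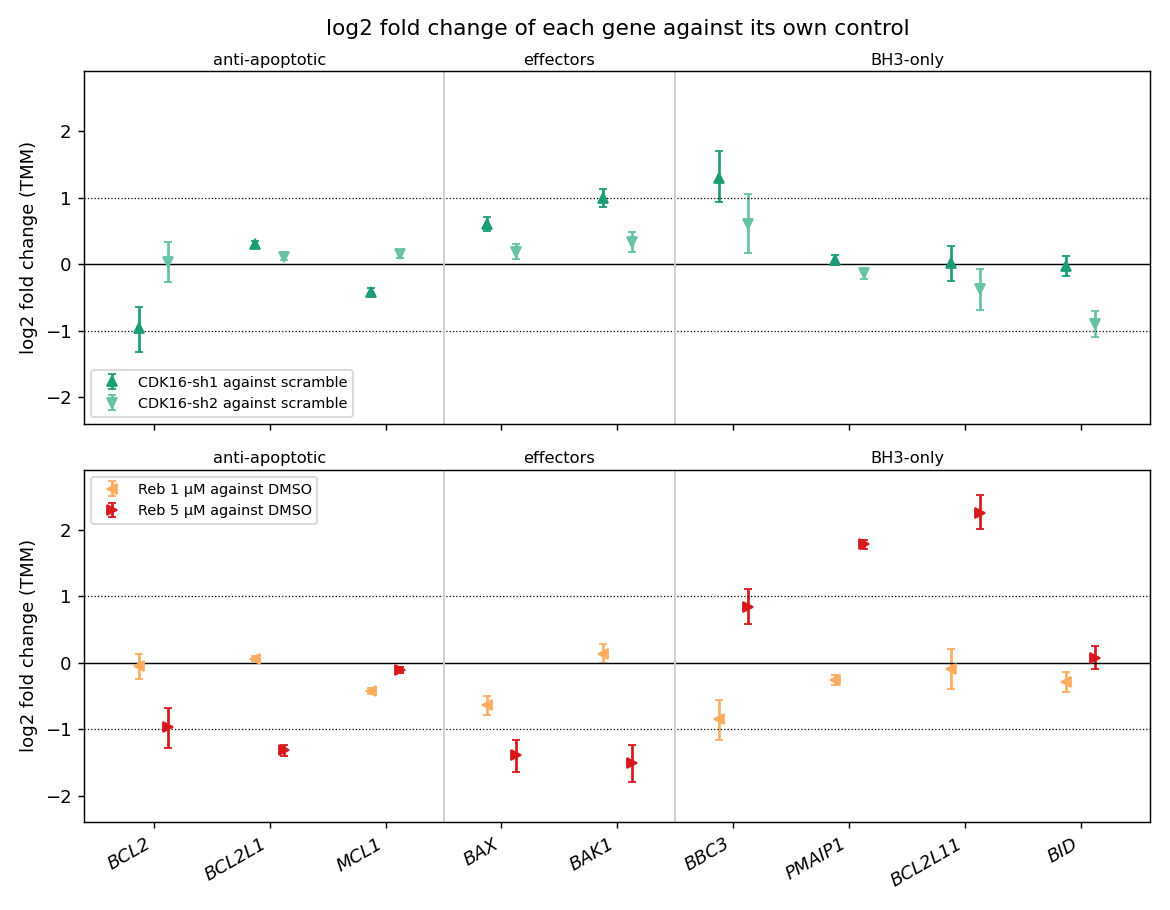
Log2 fold change (TMM scaling) of the 9 expressed members in CDK16-sh1 and CDK16-sh2 against scramble (top) and at 1 μM and 5 μM Reb against DMSO (bottom), 1 library per point, with bars for the 95% exact interval of the counts and dotted lines at 2-fold. In the top panel BBC3 in CDK16-sh1 (1.29) lies past 2-fold, and in the bottom panel PMAIP1 (1.78) and BCL2L11 (2.24) lie above it and BCL2L1, BAX and BAK1 below it at 5 μM.

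A test of the knockdown had to take both hairpin libraries as 1 group, so that the difference between the hairpins served as the spread. With edgeR's quasi-likelihood test and Benjamini-Hochberg adjustment, 0.0% of the expressed genes were called higher and 0.0% lower, and no member was called. The smallest unadjusted p among the members was 0.16, for BBC3 (edgeR, adjusted p = 1), with a fitted log2 fold change of 1.00 and values above the control for both hairpins. CDK16 itself, lower with both hairpins, was not called either (edgeR, fitted log2 fold change −1.66, adjusted p = 0.804). Over all genes 382 had an unadjusted p under 0.05, and DESeq2 likewise called 0 genes, with 233 under 0.05.

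With 1 μM Reb no member was past 2-fold, where 1.28% of all 15655 expressed genes were at least 2-fold higher and 1.92% lower. The largest difference was that of BBC3, with 259 counts with DMSO and 145 at 1 μM, a log2 fold change of −0.85 (interval −1.16 to −0.56). BAX, with 952 and 619 counts, was at −0.64 (interval −0.79 to −0.50), and MCL1, with 10409 and 7882, at −0.42 (interval −0.47 to −0.38). BBC3 and BAX, a BH3-only gene and an effector, were thus the members furthest below DMSO at this dose. BID (−0.29), PMAIP1 (−0.26), BCL2L11 (−0.09) and BCL2 (−0.05) were closer to 0, and BAK1 (0.13) and BCL2L1 (0.06) were slightly above it.

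At 5 μM Reb PMAIP1 and BCL2L11, 2 of the 9 expressed members, were at least 2-fold higher than with DMSO, and BCL2L1, BAX and BAK1, 3 of the 9, were at least 2-fold lower. This library differed from DMSO throughout, however, with 23.6% of all expressed genes at least 2-fold higher and 27.2% lower, so the share of members past 2-fold was close to that of all genes. In bulk RNA, fewer cells of a kind and less RNA per cell cannot be told apart.

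For BCL2L11, 183 counts were found in the DMSO library, 174 in the 1 μM library and 406 in the 5 μM library, although the 5 μM library was the smallest of the experiment. It was 4.73-fold higher at 5 μM, a log2 fold change of 2.24 (interval 2.00 to 2.52). PMAIP1 had 2964, 2509 and 4710 counts and was 3.42-fold higher at 5 μM, at 1.78 (interval 1.71 to 1.84). Both genes were thus near DMSO at 1 μM and well above it at 5 μM. Under library totals PMAIP1 stayed past 2-fold at 1.09 and BCL2L11 at 1.56. PMAIP1 is the most AT-rich member, with 37.2% GC, and with the trends on expression, length and GC removed it was at 0.70, under 2-fold, whereas BCL2L11 was then at 2.64.

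BBC3 turned between the doses. It went from 259 counts in the DMSO library to 145 in the 1 μM and 216 in the 5 μM library, and after scaling it was above DMSO at 5 μM by 0.84 (interval 0.58 to 1.11). This value was 0.15 under library totals and 1.46 with the trends on expression, length and GC removed. BID, with 824, 686 and 403 counts, was level with DMSO at 5 μM under TMM scaling, at 0.08 (interval −0.10 to 0.25), and lower under library totals, at −0.61. BIK had 17, 18 and 15 counts, too few for the filter.

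Of the anti-apoptotic genes, BCL2L1 differed most at 5 μM. The DMSO library held 8729 of its counts, the 1 μM library 9254 and the 5 μM library 1620, 2.50-fold lower at a log2 fold change of −1.32 (interval −1.40 to −1.25). BCL2 had 483, 473 and 114 counts, at −0.97 (interval −1.28 to −0.68), just short of 2-fold, past it under library totals (−1.65) and at −0.44 with the trends on expression, length and GC removed. MCL1 had 10409, 7882 and 4468 counts and was near DMSO at 5 μM, at −0.11 (interval −0.16 to −0.06), the smallest difference of the 3 anti-apoptotic transcripts under TMM scaling. Its value depended on the processing and was −0.80 under library totals and −0.77 with the trends removed, further from 0 than that of BCL2 in the latter case.

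The effectors were low at 5 μM. BAK1 counts were 777 in the DMSO library, 867 in the 1 μM library and 126 in the 5 μM library, 2.84-fold lower at −1.51 (interval −1.80 to −1.24). BAX had 952, 619 and 167 counts, 2.63-fold lower at −1.40 (interval −1.65 to −1.16). BAX was below DMSO at both doses, and BAK1 at 5 μM only. These differences were larger under library totals, at −2.19 for BAK1 and −2.08 for BAX, and with the trends on expression, length and GC removed they were −1.21 and −1.01.

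**Figure D3:**
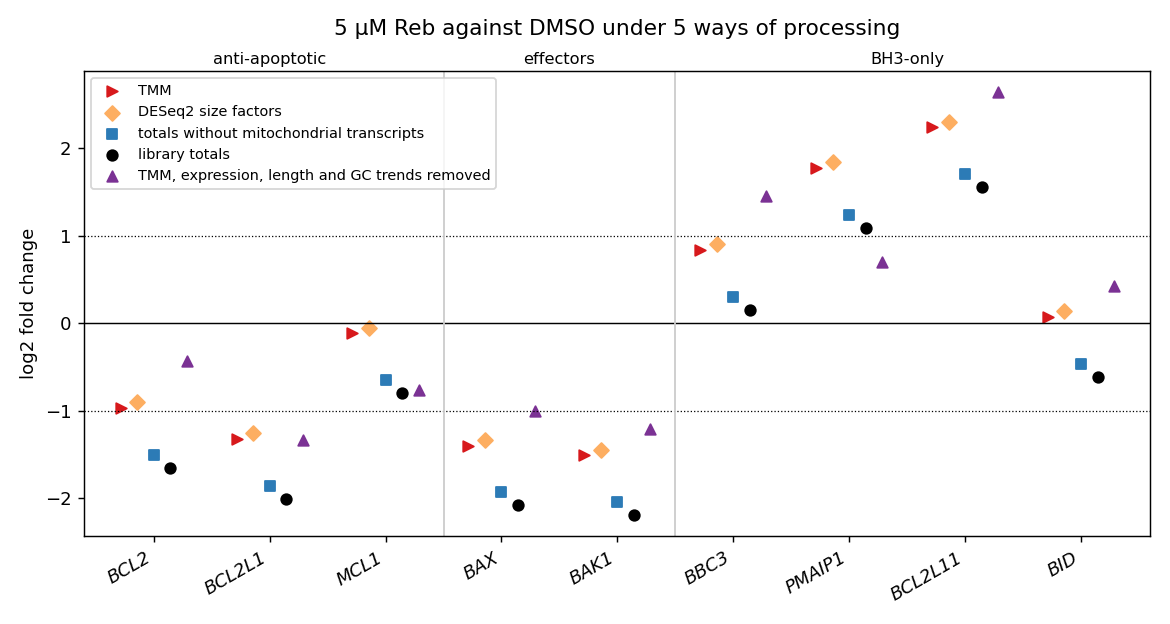
Log2 fold change of the 9 expressed members at 5 μM Reb against DMSO under 5 ways of processing, with dotted lines at 2-fold. BCL2L11 lay above 2-fold and BCL2L1, BAX and BAK1 below it in each, whereas PMAIP1 was at 0.70 with the trends removed and BID changed sign.

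When the Reb libraries were pooled into 1 group, the same edgeR test, adjusted by Benjamini-Hochberg, called 0.0703% of the expressed genes higher (11 genes) and 0.00639% lower (1 gene), and no member was among them. The smallest unadjusted p among the members was 0.254, for BCL2L11 (edgeR, adjusted p = 1). With dose as a linear term on log2(dose + 1), which spends the 3 libraries on a straight line, 13.3% of genes were called higher and 11.1% lower by edgeR. PMAIP1 (fitted log2 change from DMSO to 5 μM of 1.88, adjusted p = 0.0123) and BCL2L11 (2.37, adjusted p = 0.00627) were among the genes called higher by edgeR in this fit. BAK1 (−1.64, adjusted p = 0.0925), BAX (−1.39, adjusted p = 0.107) and BCL2L1 (−1.42, adjusted p = 0.112) did not pass in edgeR. As the fit takes departure from the line for its spread, it says nothing of how a second culture would vary.

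The make-up of the family's transcripts within a library does not depend on the scaling of libraries. Of the summed RPKM of the 10 genes, the anti-apoptotic members took 63.9% with scramble, 60.3% with CDK16-sh1 and 66.1% with CDK16-sh2, and the BH3-only members 22.9%, 20.7% and 19.1%. The effectors took 13.1%, 19.0% and 14.9%. In the Reb experiment the anti-apoptotic share was 68.2%, 69.9% and 38.2% in the DMSO, 1 μM and 5 μM libraries, while the BH3-only share was 22.1%, 20.6% and 58.8%. At 5 μM BH3-only transcripts thus outnumbered anti-apoptotic ones per length, in the only library where they did so, and PMAIP1 alone took 52.9% of the sum. The shares were not adjusted for trends on expression, length and GC, whose removal took the PMAIP1 log2 fold change at 5 μM from 1.78 to 0.70. The effector share was 9.70%, 9.51% and 3.05%.

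**Figure D4:**
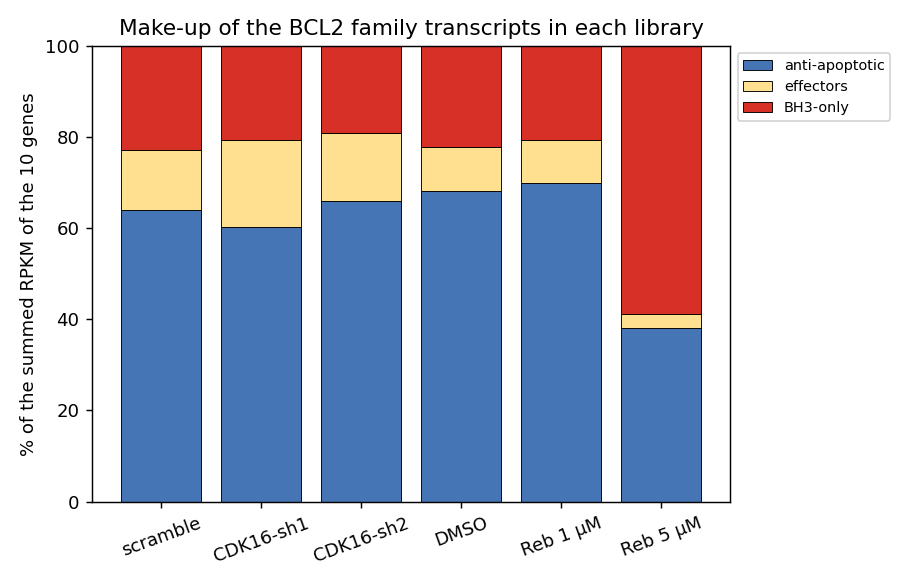
Share of the summed RPKM of the 10 genes taken by the 3 anti-apoptotic, 2 effector and 5 BH3-only members in each library. The BH3-only share lay between 19.1% and 22.9% in 5 libraries and at 58.8% at 5 μM Reb.

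Ratios of a pro-apoptotic to an anti-apoptotic transcript in the same library show the same members without any scaling between libraries, for pairs chosen after their values were seen. PMAIP1 to MCL1, the genes of NOXA and its main partner, stood at 0.557 (interval 0.534 to 0.580) with DMSO. It was 0.622 with 1 μM (interval 0.595 to 0.651) and 2.06 with 5 μM (interval 1.98 to 2.15), a 3.70-fold difference from DMSO. BCL2L11 to BCL2L1, BIM against BCL-XL, stood at 0.0104, 0.0094 and 0.125, which is 12.0-fold above DMSO at 5 μM. BBC3 to BCL2L1 was 0.0309, 0.0163 and 0.139. These ratios restate the values of their genes given above and are no further support for them.
By contrast, BAX to BCL2L1 was 0.140, 0.0857 and 0.132 in the DMSO, 1 μM and 5 μM libraries, and BAK1 to BCL2L1 was 0.133, 0.140 and 0.117. At 5 μM the intervals of both ratios (0.112 to 0.155 and 0.0964 to 0.140) overlapped those with DMSO (0.130 to 0.149 and 0.124 to 0.143), so the effectors and BCL2L1 were lower by about the same factor. In the knockdown experiment BAK1 to BCL2L1 was 0.106 with scramble, 0.170 with CDK16-sh1 and 0.124 with CDK16-sh2, and BBC3 to BCL2L1 was 0.0090, 0.0182 and 0.0128. BAX to BCL2, the classical pair of this family, was 27.8, 83.0 and 31.0, so it stood apart in CDK16-sh1 alone. The ratios were not adjusted for trends on expression, length and GC. Their removal took the log2 fold changes in CDK16-sh1 from 0.60 to 0.14 for BAX and from −0.96 to −0.61 for BCL2. PMAIP1 to MCL1 was 1.17, 1.63 and 0.958.

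**Figure D5:**
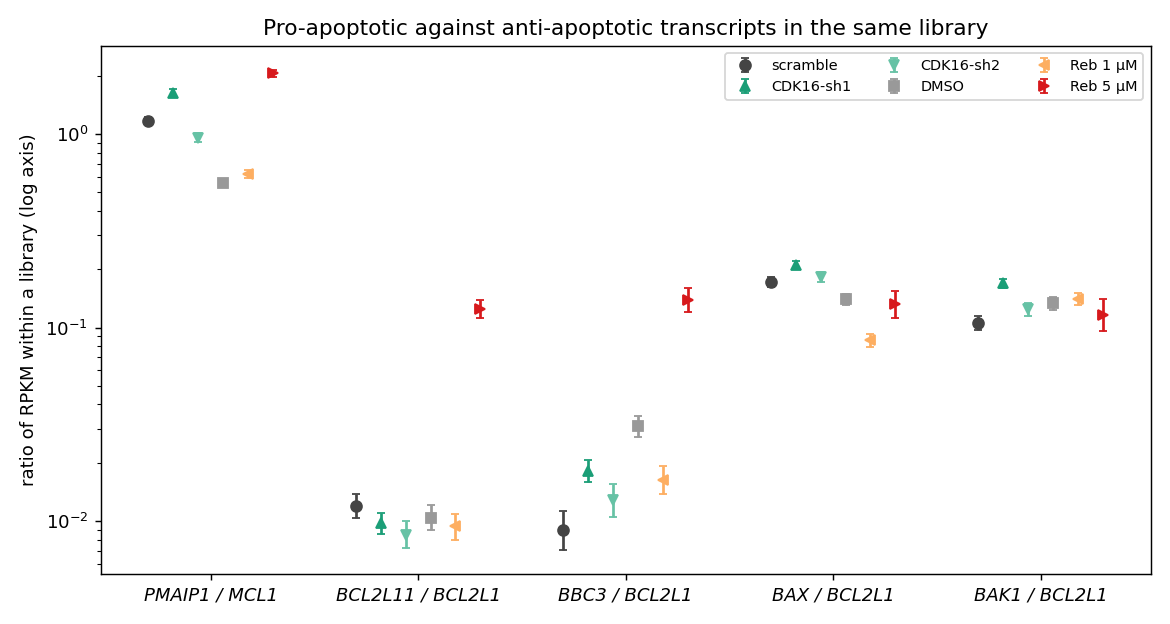
Ratio of the RPKM of a pro-apoptotic gene to that of an anti-apoptotic gene within each library (log axis), with bars for the 95% exact interval of the counts. At 5 μM Reb the ratios with BCL2L11, BBC3 and PMAIP1 lay above the other 5 libraries, and those with BAX and BAK1 did not.

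BCL2L1 values carry a further limit from the annotation. The antisense transcript ABALON shares 1424 exon bases with BCL2L1, 43.0% of the exon length of BCL2L1. Its counts were 4164, 5120 and 4264 in the knockdown experiment and 6125, 6593 and 1138 in the Reb experiment, which is 38.5% to 71.2% of those of BCL2L1. The strand setting of the counting is not given in the sources used here, so reads of the overlap may have been assigned to either gene. ABALON was also low at 5 μM, and the share it had of the BCL2L1 count was 70.2% there and 70.2% with DMSO. BAK1 shares 91 bases with GGNBP1 and BBC3 shares 80 with MIR3190, both on the opposite strand, 4.11% and 2.52% of their exon lengths.

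Around the 10 members, 60 other genes of the pathway were followed in 8 lists, of which 55 were expressed. In CDK16-sh1, 4 of the 55 were at least 2-fold higher (BMF, DFFB, ATF3 and JUN) and 0 lower, where 4.33% and 6.86% of all genes were. In CDK16-sh2 1 was higher (DFFB) and 5 were lower (APAF1, CASP2, TP73, DUSP6 and TNFSF10), beside 2.2% and 7.62% of all genes. At 1 μM Reb 0 were higher and 2 were lower (BCL2A1 and BMF), beside 1.28% and 1.92% of all genes. At 5 μM 11 were higher and 21 lower, where 23.6% and 27.2% of all genes were. These counts rest on few genes and were not tested. The medians of the 55 genes were 0.06, 0.11, −0.00 and −0.37 in these 4 comparisons, beside −0.00, 0.02, 0.00 and −0.07 over all expressed genes.

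Among the 12 other members of the family, 8 were expressed, and BMF, a BH3-only gene whose protein is held at the cytoskeleton, was past 2-fold and lower at both doses. Its counts were 240, 56 and 16 in the DMSO, 1 μM and 5 μM libraries, and its log2 fold changes −2.08 and −2.72. BMF was therefore opposite in direction to PMAIP1 and BCL2L11 at 5 μM, and in CDK16-sh1 it was 3.37-fold higher (90 counts with scramble, 373 with CDK16-sh1, 50 with CDK16-sh2). BCL2A1, an anti-apoptotic NF-κB target, was 0.305-fold of DMSO at 1 μM (238 and 72 counts) and near DMSO at 5 μM (122 counts), at 0.14 and under library totals at −0.54. It was above the scramble library with both hairpins, at 0.67 and 0.90. BCL2L2, which encodes BCL-W, was at −1.22 at 5 μM, the same side as BCL2L1, and BNIP3L was the lowest of its list in CDK16-sh2 at −0.89.

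Genes that act after the mitochondrion included DFFB, the caspase-activated DNase, which was past 2-fold with both hairpins (54, 144 and 119 counts, log2 fold changes of 1.11 and 1.22) and lay at 0.77 at 1 μM Reb but at −0.19 at 5 μM (172, 299 and 70 counts). APAF1, the scaffold of the apoptosome, was at −1.37 in CDK16-sh2 (458 and 163 counts). At 5 μM 1 of the 12 apoptosome and caspase genes was at least 2-fold higher and 5 were lower, where 23.6% and 27.2% of all genes were. The lowest was FADD, the adaptor of death receptors, at −3.25 (5380, 3681 and 262 counts). The 7 genes listed as death receptors and ligands, which include the signaling proteins TRADD and RIPK1, were all below DMSO at 5 μM. Of these, 5 including TRADD were past 2-fold, with a list median of −2.01, where 27.2% of all genes were at least 2-fold lower. TNFRSF1A was the lowest at −2.99. In CDK16-sh2 the ligand TNFSF10 (TRAIL) was at −1.12, and RIPK1 was at −0.86 in CDK16-sh1, while FAS was at 0.84 at 1 μM. Of the mitochondrial partners, VDAC2, a channel that binds BAK, was 5.57-fold higher at 5 μM (6572, 8188 and 16998 counts), a log2 fold change of 2.48 that was 1.79 under library totals and 1.71 with the same trends removed, with 0.56 in CDK16-sh2. The 5 partners were split at 5 μM, with VDAC1 also at least 2-fold higher, AIFM1 and ENDOG at least 2-fold lower and a median of −0.37. VDAC3 was at 0.37 at 1 μM and ENDOG at 0.89 in CDK16-sh1. Of the 8 caspase inhibitors and antagonists, BIRC2 was highest at both doses (0.65 and 1.63, the latter under 2-fold at 0.94 by library totals and at 0.73 with the trends on expression, length and GC removed), BIRC3 was highest in CDK16-sh1 (0.87) and DIABLO in CDK16-sh2 (0.79).

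The 9 expressed transcription factors known to drive BH3-only or effector genes lay on both sides of DMSO at 5 μM. FOXO1, FOXO3, ATF3, ATF4 and JUN were at least 2-fold higher and TP73 and E2F1 at least 2-fold lower, where 23.6% and 27.2% of all genes were. ATF3, a stress-induced factor, had 320, 388 and 2527 counts in the DMSO, 1 μM and 5 μM libraries and a log2 fold change of 4.08 at 5 μM. FOXO1 was at −0.72 at 1 μM and 1.06 at 5 μM, the latter at 0.38 under library totals. In CDK16-sh1 ATF3 (85 and 354 counts) was at 1.76, and in CDK16-sh2 at −0.48 (56 counts), so the hairpins parted here too. TP73 was lowest of the list in CDK16-sh2 at −1.04. Among regulators of MCL1 and BIM protein turnover, DUSP6, an ERK phosphatase whose transcript follows ERK activity, was at −0.88 and −1.76 at 1 μM and 5 μM (4000, 2210 and 547 counts) and at −0.50 and −1.08 with the hairpins. FBXW7, part of an MCL1 ubiquitin ligase, was at −0.74 in CDK16-sh1.

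For the 3 members that varied most over the 4 comparisons (root mean square log2 fold change of 1.14 for BCL2L11, 0.93 for BBC3 and 0.92 for BAK1), the genes with the most similar 4 values were sought among the 10554 genes that averaged 5 CPM or more, by Euclidean distance. Nearest to BCL2L11 were ATPAF2 (distance 0.19), PARP8 (0.19) and FAM107B (0.19). BBC3 had SPSB1 (0.31), G6PC3 (0.46) and RPL28 (0.51), and BAK1 had FAM189B (0.12), TRNAU1AP (0.12) and DCTPP1 (0.23). SPSB1, for example, was at 1.31 in CDK16-sh1, 0.75 in CDK16-sh2, −0.64 at 1 μM and 0.67 at 5 μM. The 4 values share 2 control libraries, and likeness over so few points is a description only.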

How the data were processed

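Messenger RNA libraries of MDA-MB-231 cells were prepared with a stranded kit and sequenced on a HiSeq X 10. The submitters' processing notes name Trimmomatic, featureCounts, Subread 1.5.1 and GRCh38. The aligner, the annotation and the strand setting of the counting are not given in the sources used here. The authors deposited whole-number counts per gene symbol without normalization, and RPKM values, which were the deposited counts per gene length and library total. Dates had replaced 28 and 27 symbols, none of them a member.

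Counts were scaled with TMM in edgeR 4.0.16 (R 4.3.3), and log2 fold changes, with a prior count of 2, were taken for every gene averaging 1 CPM or more in its experiment (an expressed gene). With 1 library per condition these values carry no test. Intervals are 95% Clopper-Pearson intervals of the counts of both libraries (scipy 1.17.1). Without molecular identifiers reads cannot be counted as molecules, and the intervals hold counting error alone. The only tests across genes were edgeR's quasi-likelihood fits, with both treated libraries as 1 group, called at an adjusted p up to 0.05 with a fold change of 2 or more, or with dose as a linear term. DESeq2 1.42.0 was the alternative. Trends were removed by loess (span 0.4), with GC content from GENCODE on GRCh38 for 99.1% and 99.0% of expressed genes. The steps were also run on simulated data in which both treated libraries were given the same changes. That setting differs from the libraries here, so the run says nothing of how far these values would repeat. All member positions in the tables matched GENCODE on GRCh38.

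The members, pathway lists, motifs and ratios were chosen with earlier results of these data known. The genes named are the 10 members, CDK16, list genes that both treated libraries put past 2-fold on one side, the list gene furthest from 0 in each comparison, and for the likeness the 3 nearest genes of the 3 most variable members. Other list genes past 2-fold were named after their values were seen, and 1 list gene is not reported here.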

Additional observations from a re-analysis of the deposited data

Results flagged for a closer look

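Under TMM scaling the treated libraries of an experiment stood on opposite sides of their shared control for 4 members, each by more than counting error. None of these differences was tested, as each condition had 1 library. MCL1 was at −0.42 with CDK16-sh1 and 0.15 with CDK16-sh2, a difference of 0.57 (interval 0.50 to 0.63). Under library totals and by RPKM its CDK16-sh2 value was −0.04, and with the trends removed −0.03 and −0.01, so under these settings it did not lie above the scramble library. BCL2L1 was at 0.06 at 1 μM Reb and −1.32 at 5 μM, a difference of −1.38 (interval −1.46 to −1.31). BBC3 was at −0.85 and 0.84, a difference of 1.69 (interval 1.40 to 2.02). Under library totals its 5 μM value was 0.15 (interval −0.11 to 0.42), so under that setting it was within counting error of DMSO. PMAIP1 was at −0.26 and 1.78, a difference of 2.04 (interval 1.97 to 2.11). The 5 μM library also differed from DMSO in its share of mitochondrial counts (16.4% and 7.19%), and the part this had in the last 3 differences was not tested.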

How the results depend on the processing

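Of the 36 log2 fold changes of members, 36 with a prior count of 0.5 and 35 with DESeq2 size factors stayed within the counting interval of the reported value. Within it were also 20 under library totals, 20 by the authors' RPKM, 21 with totals without mitochondrial transcripts (added after seeing the data), 18 with the trends on expression and length removed and 13 with GC content removed too. No value past 2-fold changed sign. Values under 2-fold changed sign in 6, 6, 5, 3 and 3 cases under these 5 settings, and the causes were not tested. Past 2-fold, library totals and RPKM gained BID in CDK16-sh2 and BCL2 at 5 μM, and totals without mitochondrial transcripts gained BCL2 in CDK16-sh1 as well. The removal of GC, expression and length trends lost BBC3 in CDK16-sh1 (0 members higher) and PMAIP1 at 5 μM and gained BBC3 at 5 μM.

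Members at least 2-fold lower numbered 1 in CDK16-sh2 under library totals, totals without mitochondrial transcripts and RPKM, and 1 in CDK16-sh1 under totals without mitochondrial transcripts. Of all 15295 expressed genes, 1701, 1459 and 1468 were at least 2-fold lower in CDK16-sh2 under these settings, in that order. In CDK16-sh1 1176 were, under totals without mitochondrial transcripts. A threshold of 1.5-fold gave 3 members higher and 1 lower with CDK16-sh1, 1 and 1 with CDK16-sh2, and 2 lower at 1 μM. Over all genes it gave 2531 higher and 2873 lower with CDK16-sh1, 1688 and 2574 with CDK16-sh2, and 953 and 1125 at 1 μM. Without the filter on low counts, 2-fold gave 2232 higher and 2666 lower with CDK16-sh1, 1897 and 3222 with CDK16-sh2, 2440 and 2249 at 1 μM, and 9042 and 7405 at 5 μM. GC removal gave 382 higher in CDK16-sh1. Genes higher in CDK16-sh2 numbered 152 under totals, 206 without mitochondrial transcripts and 123 by RPKM, against 336 in the reported setting. At 5 μM they numbered 1835, 2138 and 1734, against 3695, and those lower 6792 under totals and 6490 by RPKM, against 4254.

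In the Reb test 3 genes were called higher and 0 lower without the filter, 0 and 0 under library totals, and 2088 and 1744 with dose as a linear term. DESeq2 called 13 higher and 4 lower. Leaving out a library was not run as a test, since no residual degree of freedom would remain. Depth limits BIK most, with at most 18 counts in a library, and then BBC3, BCL2 and BCL2L11.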
